A study of Mus musculus with 6 samples.

Results

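Glycosyltransferases add single sugars to growing glycan chains, and carbohydrate sulfotransferases add sulfate groups to them. The genes examined here are those of the deposited count table whose symbols start with Galnt, B3gnt, B3galt, B4galt, St3gal, St6gal, St6galnac, St8sia, Fut, Gcnt, Mgat, Chst, Hs3st or Hs6st and go on with a number. This rule uses symbols only and no measured value. It matched 109 symbols, of which the pseudogene Fut4-ps1, with 0 counts in every library, was left out. The remaining 108 genes of 41079 listed genes fall into 14 families and include the antisense RNAs Galnt6os and St8sia3os, which encode no enzyme.

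RNA was sequenced from microglia, the resident macrophages of the brain, in 6 libraries. The cells came from C57Bl/6N mice aged 1 to 3 days, were grown as mixed glia from pooled brains with conditioned medium of L-929 cells, and were shaken off and left to adhere in serum medium, so both groups share this history. The 3 control cultures were then kept in serum-free DMEM/F12. The 3 optimized cultures received human TGF-β1, IL-34 and CX3CL1 at 100 ng/mL each, and, according to the methods of the study but not the labels, cholesterol, insulin-transferrin-selenium and a collagen IV coating. The contributions of these supplements cannot be told apart.

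Glycan chains are built stepwise, largely in the Golgi apparatus. Some enzymes start a chain on a protein, others branch and lengthen it with N-acetylglucosamine and galactose, and sialic acid, fucose or sulfate is often added at its ends. Such end groups are what lectins of macrophages, including galectins and Siglecs, recognise. Proteoglycans carry other chains, such as chondroitin, keratan and heparan sulfate, to which sulfate is added at several positions.

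Total counts per library were between 20628148 and 27261839. The 8 microglial marker genes summed to 6449 to 6556 CPM (counts scaled to TMM-adjusted library sizes) in the control libraries and to 11976 to 14330 CPM in the optimized libraries. Summed neuronal markers were at 3.07 to 4.72 CPM in the control and 5.3 to 6.34 CPM in the optimized libraries, astrocytic markers at 33.4 to 36.2 and 22.1 to 25.7 CPM, and oligodendrocytic markers at 135 to 151 and 164 to 202 CPM. Markers of oligodendrocyte precursors summed to 40.9 to 53.3 CPM in the control and 452 to 634 CPM in the optimized libraries, those of pericytes to 273 to 308 and 498 to 694 CPM, those of endothelial cells to 81.5 to 97.1 and 274 to 352 CPM, and those of fibroblasts to 34.5 to 48.8 and 31 to 151 CPM. Cspg4, on both the precursor and the pericyte list, and Flt1 made up most of the first 3 of these differences. Anpep, also on the pericyte list, went the other way, from a mean of 262 CPM in the control to 68.8 CPM in the optimized libraries. On the astrocytic list Aldh1l1 went from 16.5 to 4.64 CPM and Aqp4, Slc1a3 and Slc1a2 were also lower. Gja1 (5.64 to 7.94 CPM) and Gfap (4.18 to 4.68 CPM) were higher. No marker gene was at 0 in all libraries, and the part of other cells in the results was not tested. In bulk RNA, fewer cells of a type and less RNA per cell cannot be told apart.

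Of the 108 genes, 66 had enough counts to be tested with edgeR's quasi-likelihood test. In the optimized cultures 18 of the 66 rose (27.3%) and 14 fell (21.2%) at an adjusted p under 0.05, where 14.7% of all 14618 tested genes rose and 15.2% fell. Either direction together, 48.5% of the 66 were called against 29.8% of all genes. These shares are descriptions, since genes that passed the filter on low counts only through the group in which they were high had to differ. The median log2 fold change, optimized over control, was -0.06 for the 66 genes and 0.01 for all tested genes. All optimized libraries lay above all control libraries in 25 of the 66 genes and below them in 24, whereas over all genes these shares were 21.4% and 22.5%. Past the threshold with at least a 2-fold change, 11 of the 66 genes rose and 5 fell, where 5.9% of all tested genes rose and 5.11% fell by as much. With library size alone as the scale, which moved the median of all tested genes to -0.12, 15 of the 66 rose and 25 fell. On that scale 1513 of all 14618 tested genes rose and 3168 fell, so the shift toward falls was not particular to the 66. None of the 32 called genes turned its direction under any of the 15 alternatives in which it was tested. Of the called genes not discussed below for an overlap, B3gnt8 (2386 bases with Bckdha), St3gal4 (1220 bases with 4930581F22Rik), St6gal1 (217 bases with BC106179), St3gal5 (161 bases), Galnt7 (98 bases) and St6galnac6 (9 bases) also share exon sequence with a gene on the opposite strand, none of which was called.

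**Figure D1:**
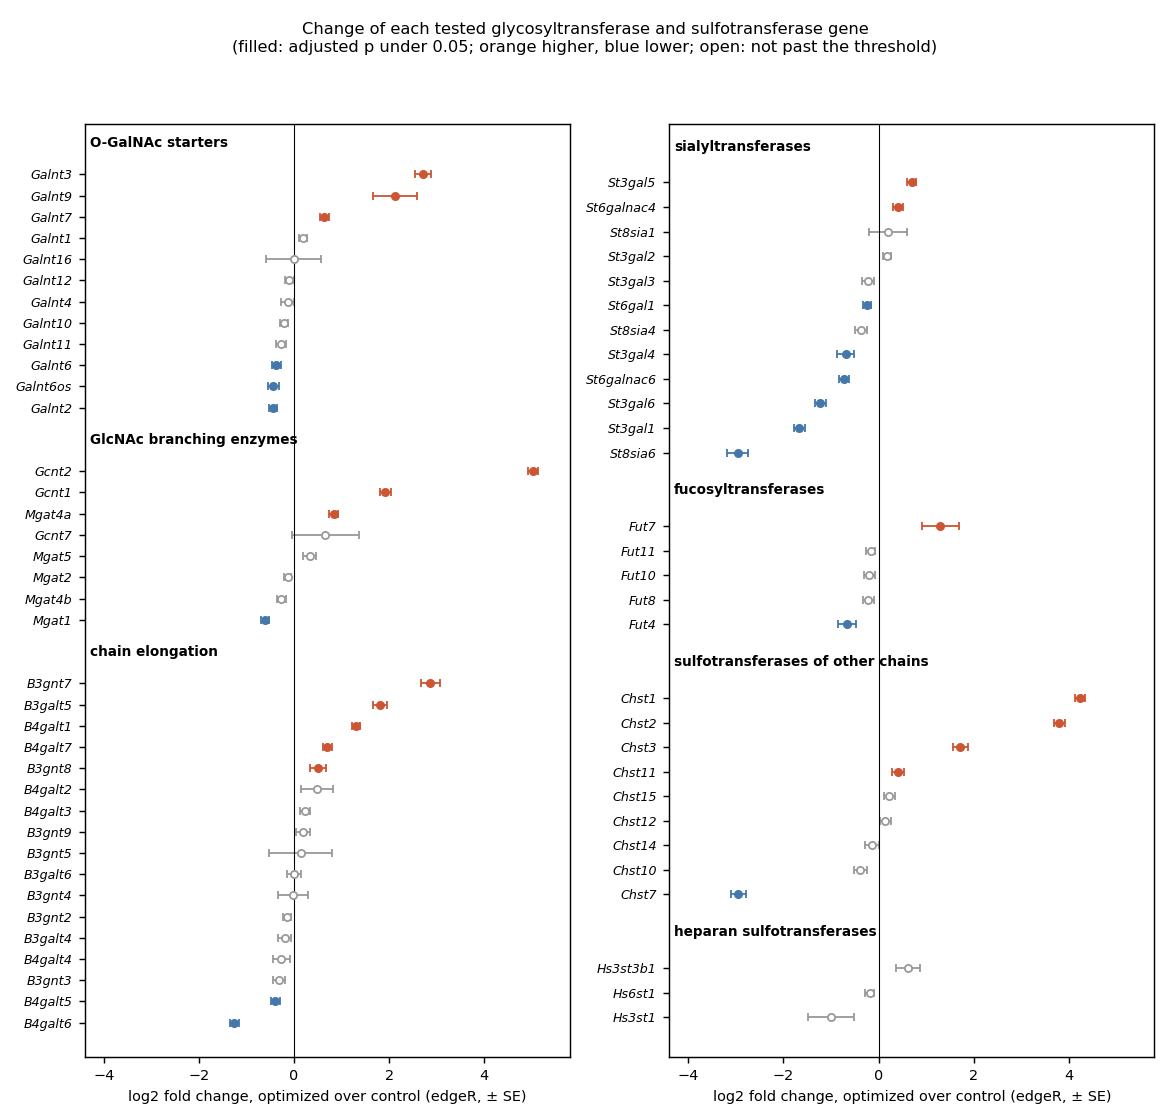
Log2 fold change, optimized over control cultures, of the 66 tested genes grouped by role, with points at the edgeR estimate and bars of 1 standard error. The 18 genes that rose reach 5.03 for Gcnt2 and the 14 that fell reach -2.96 for St8sia6, and every role except the heparan sulfotransferases holds genes called in both directions.

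The largest changes were those of Gcnt2, Chst1 and Chst2, which rose, and of St8sia6, which fell. The sequences around their transcription start sites are shown because these genes changed most and because the optimized medium held TGF-β1. Each runs 5′ to 3′ on the strand of the gene, from 250 bases before to 50 bases after a start given by RefSeq on GRCm38.p6, a build other than that of the counts. Capitals mark the half-site CAGAC, to which SMAD proteins, the transcription factors of TGF-β signalling, bind, on either strand.
Gcnt2, chr13:40859518-40859817, plus strand: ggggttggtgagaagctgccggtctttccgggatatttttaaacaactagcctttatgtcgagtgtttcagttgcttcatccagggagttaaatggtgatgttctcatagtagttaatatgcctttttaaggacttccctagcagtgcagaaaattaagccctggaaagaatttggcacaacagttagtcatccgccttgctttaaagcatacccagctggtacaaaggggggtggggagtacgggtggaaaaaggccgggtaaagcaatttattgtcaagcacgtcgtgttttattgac
Gcnt2, chr13:40886508-40886807, plus strand: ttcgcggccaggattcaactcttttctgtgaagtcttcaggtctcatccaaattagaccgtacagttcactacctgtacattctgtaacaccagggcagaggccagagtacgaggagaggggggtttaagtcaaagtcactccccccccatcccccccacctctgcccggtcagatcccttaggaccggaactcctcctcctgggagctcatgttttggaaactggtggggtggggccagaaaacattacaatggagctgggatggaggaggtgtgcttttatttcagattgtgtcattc
Gcnt2, chr13:40917384-40917683, plus strand: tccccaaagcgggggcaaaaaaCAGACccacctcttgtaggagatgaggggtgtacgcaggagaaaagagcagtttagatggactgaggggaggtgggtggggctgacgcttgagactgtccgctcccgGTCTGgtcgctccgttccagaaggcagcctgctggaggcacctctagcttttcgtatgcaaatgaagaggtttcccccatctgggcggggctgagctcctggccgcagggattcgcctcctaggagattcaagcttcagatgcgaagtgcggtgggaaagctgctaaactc
Chst1, chr2:92600867-92601166, plus strand: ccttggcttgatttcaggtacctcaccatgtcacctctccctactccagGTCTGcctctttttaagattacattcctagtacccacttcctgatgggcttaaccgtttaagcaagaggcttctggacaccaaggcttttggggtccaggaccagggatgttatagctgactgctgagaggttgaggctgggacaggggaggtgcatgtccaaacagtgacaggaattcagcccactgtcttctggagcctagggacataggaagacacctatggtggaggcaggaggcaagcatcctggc
Chst2, chr9:95407221-95407520, minus strand: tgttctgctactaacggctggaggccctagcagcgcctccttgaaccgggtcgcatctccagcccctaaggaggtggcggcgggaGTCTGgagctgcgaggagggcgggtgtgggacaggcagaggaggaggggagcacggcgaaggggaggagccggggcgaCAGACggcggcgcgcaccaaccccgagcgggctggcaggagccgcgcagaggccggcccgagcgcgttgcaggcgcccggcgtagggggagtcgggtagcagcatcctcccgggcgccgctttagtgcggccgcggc
St8sia6, chr2:13793471-13793770, minus strand: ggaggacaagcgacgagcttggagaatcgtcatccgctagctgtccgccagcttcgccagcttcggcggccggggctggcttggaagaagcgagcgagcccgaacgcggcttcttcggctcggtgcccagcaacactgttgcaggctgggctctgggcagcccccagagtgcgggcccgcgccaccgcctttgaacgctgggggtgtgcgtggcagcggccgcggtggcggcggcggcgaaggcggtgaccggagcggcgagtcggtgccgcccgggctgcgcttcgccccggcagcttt

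Gcnt2 has 3 such starts, of which the last holds 2 matches to CAGAC and the other two hold none. Chst1 holds 1 match, Chst2 holds 2 and St8sia6 holds none. A motif of 5 letters is common, and CAGAC was found in 49.6% of all 32851 windows of this length and in 51.3% of the 78 windows of the tested genes. Among the genes called with a change of 2-fold or more, it was in 63.2% of 19 windows of those that rose and in none of 4 windows of those that fell. The AP-1 motif TGACTCA was in 5.2% of all windows, in 1.28% of those of the tested genes and in none of these 23. The PU.1 motif GAGGAAGT was in 3.2% of all windows, in 3.85% of those of the tested genes, in 5.26% of the 19 and in none of the 4. Windows are not separate genes, since Gcnt2, Gcnt1, B3galt5, Galnt9 and Fut7 gave several of the 19. The 4 came from St3gal6, Chst7 and St8sia6 only, as St3gal1 and B4galt6 had no window. A match describes letters only, and 56 of the 66 tested genes had a window.

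Gcnt2 encodes the enzyme that branches chains of repeated N-acetyllactosamine, the branch known as the I blood group antigen. The control libraries held 57, 68 and 68 raw counts of it, and the optimized libraries 1696, 1999 and 1813. In CPM it stood at 2.58 ± 0.163 (SD, n = 3) in the control and at 84.4 ± 3.75 in the optimized cultures, a 32.6-fold difference (log2 fold change 5.03, SE 0.11, adjusted p = 1.3e-08). The ranges of the groups were far apart relative to the spread within either.

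Gcnt2 lies at chr13:41013230-41114370 (GRCm39, GENCODE M39, plus strand) and shares exon sequence with A730081D07Rik, a long non-coding RNA gene on the opposite strand at chr13:41109890-41154686. The shared sequence is 505 bases in all, in 3 exons of A730081D07Rik that lie within the last exon of Gcnt2. A730081D07Rik had 47, 39 and 62 counts in the control and 823, 880 and 846 in the optimized libraries (log2 fold change 4.30, SE 0.14, adjusted p = 4.1e-08). Its counts were 57.4% to 91.2% of those of Gcnt2 in the control libraries and 44% to 48.5% in the optimized libraries. Because the strand setting of the counting is not given, reads of the 2 genes on the shared bases cannot be told apart. After subtraction of all A730081D07Rik counts, the control libraries kept 10, 29 and 6 counts of Gcnt2 and the optimized ones 873, 1119 and 967, and the log2 fold change was 6.21 (SE 0.32, adjusted p = 5.8e-07). This subtraction takes away all A730081D07Rik counts, although only part of its exon sequence is shared, and the fold change after it rests on the few control counts left. How much either gene contributed to the counts of the other cannot be told apart.

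**Figure D2:**
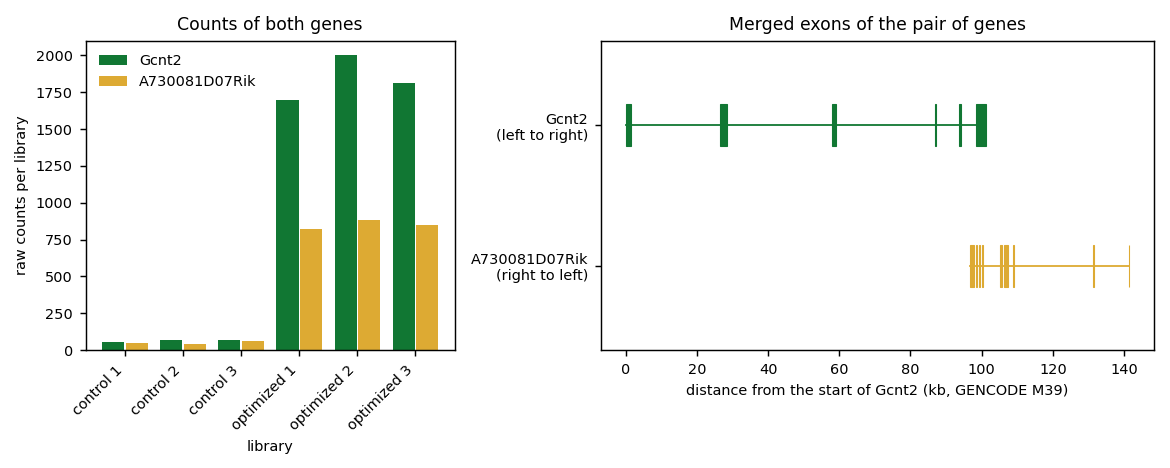
Raw counts of Gcnt2 and A730081D07Rik in each of the 6 libraries, and the exons of both genes by distance from the start of Gcnt2, with 1 row per gene. Both genes were higher in all 3 optimized libraries (1696 to 1999 and 823 to 880 counts) than in the control libraries (57 to 68 and 39 to 62 counts), and their exons overlap only near the 3′ end of Gcnt2.

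Among the other enzymes that branch chains with N-acetylglucosamine, Gcnt1 and Mgat4a rose and Mgat1 fell. Gcnt1 forms the core 2 branch of mucin-type O-glycans and was at 42.3, 35.8 and 34.7 CPM in the control and 160, 131 and 136 CPM in the optimized libraries (log2 fold change 1.92, SE 0.11, adjusted p = 1.4e-06). Optimized library 1 was the highest of its group, and every optimized library was above every control library. Mgat4a, which adds an antenna to N-glycans, rose by 0.83 on the log2 scale, and Mgat1, which opens the way to complex N-glycans, fell by 0.61. Mgat4b, the gene with the highest mean over all 6 libraries in FPKM (fragments per kilobase of gene, scaled to the size of the library, hence a level per length), did not pass the test. It stood at 51.1, 53.4 and 49.9 FPKM in the control and at 35.8, 41.4 and 38.7 FPKM in the optimized libraries (log2 fold change of counts -0.27, adjusted p = 0.061), with all optimized libraries below the controls. It was called lower with the replicate number as a block (0.028), DESeq2 (0.047), library size alone (0.0052) and limma on FPKM (0.0056 to 0.0064), and without optimized library 2 (0.012). Its exons share 141 bases with Sqstm1 on the opposite strand, which had 5.37 times its counts and fell (-0.70, adjusted p = 0.00084). Mgat2, which adds the second antenna of complex N-glycans, was at 33.2, 35.4 and 31.1 FPKM against 26.7, 27.2 and 28.2 FPKM and was not called (log2 fold change -0.14, adjusted p = 0.25), but was with library size alone (0.04) and limma on FPKM (0.028 to 0.029). Mgat5 was not called either (0.33, adjusted p = 0.1), but was with the replicate number as a block (0.033) and without optimized library 2 (0.037). It overlaps exons of Tmem163 by 1249 bases, and Tmem163 had a log2 fold change of 2.08.

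The enzymes of the Galnt family start mucin-type O-glycans by placing N-acetylgalactosamine on serine or threonine, and of its 18 genes 12 were tested. Of these, 3 rose (25%) and 3 fell (25%), beside 14.7% and 15.2% of all tested genes. Both the 12 and the 3 that fell include the antisense RNA Galnt6os, which encodes no enzyme. Galnt3 was at 2.19, 1.51 and 2.05 CPM in the control and at 12.5, 11.8 and 13.2 CPM in the optimized libraries, a 6.51-fold difference (log2 fold change 2.70, SE 0.17, adjusted p = 2e-06). Galnt9 had 7, 7 and 3 counts in the control and 28, 21 and 17 in the optimized libraries (2.12, SE 0.46, adjusted p = 0.0061). Galnt9 passed the filter on low counts only through the optimized libraries, so its difference is a description, and it was not tested where 10 counts were asked of every library. Galnt7, which prefers substrates that already carry N-acetylgalactosamine, rose by 0.64. Galnt2 and Galnt1 had the highest mean FPKM of the family over all 6 libraries, although in the optimized cultures Galnt7 was level with them (22.8% of the family's FPKM, against 22% for Galnt2 and 21.5% for Galnt1). Galnt2 was at 44.3, 42.4 and 42.2 FPKM in the control and at 27.2, 28.3 and 30 FPKM in the optimized libraries and fell (-0.45, SE 0.08, adjusted p = 0.0024). Galnt1 was at 26.5, 29.9 and 24.6 FPKM against 29.6, 25.7 and 28.5 FPKM and was not called (0.19, adjusted p = 0.13). Galnt6 fell by 0.37 and Galnt6os by 0.44 on the log2 scale, and these 2 share 574 exon bases on opposite strands, so their reads cannot be told apart. Galnt6os lost its call without control library 1 (adjusted p = 0.061) or control library 3 (0.072). The summed level of the tested Galnt genes, Galnt6os included, was 145 ± 5.49 FPKM in the control and 130 ± 7.59 FPKM in the optimized cultures. FPKM are scaled to library size, and on log2(FPKM + 0.1) the median change of all tested genes was -0.13. The rises of Galnt3 and Galnt9 were differences at a low level within the family, at 2.36% and 0.238% of its FPKM in the optimized cultures.

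**Figure D3:**
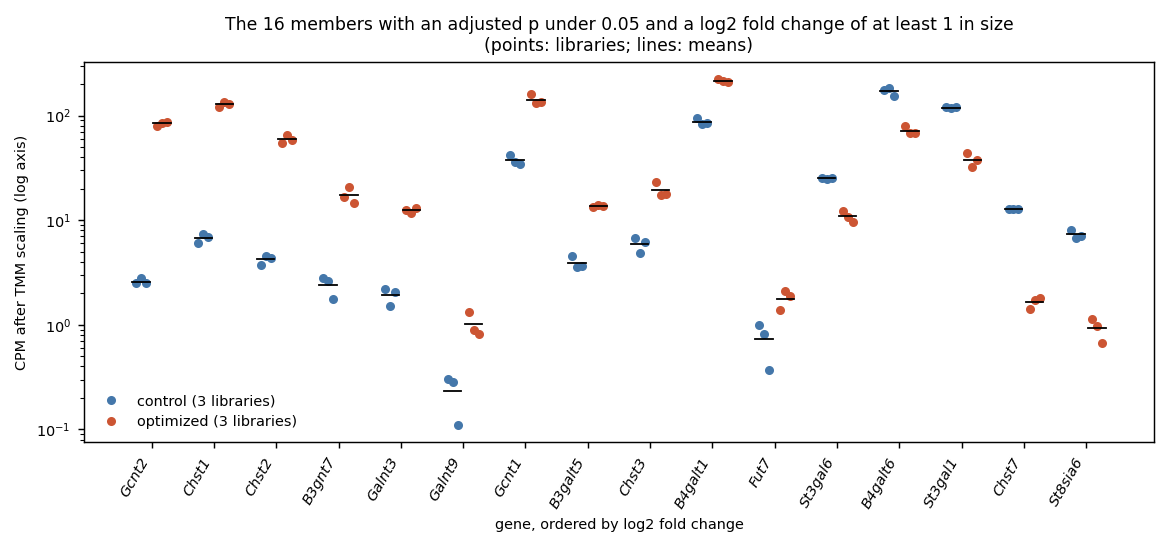
CPM on a log axis in each of the 6 libraries for the 16 genes called with a change of 2-fold or more, with 1 point per library and control and optimized cultures set side by side. In each of the 16 genes the 3 control and the 3 optimized libraries occupy separate ranges, from Galnt9 at 0.11 to 1.33 CPM to B4galt1 at 82.4 to 223 CPM. The genes were chosen by call and size of change from these same libraries, so this separation only describes them. Over all tested genes the optimized libraries lay above all controls in 21.4% and below them in 22.5%.

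Of 21 chain-elongating enzymes 17 were tested, and 5 rose (29.4%) and 2 fell (11.8%), beside 14.7% and 15.2% of all tested genes. B3gnt7, which extends keratan sulfate chains, was at 2.8, 2.61 and 1.76 CPM in the control and at 16.7, 20.7 and 14.5 CPM in the optimized libraries (log2 fold change 2.87, SE 0.20, adjusted p = 4.6e-06). It shares 756 exon bases on opposite strands with Gm28626, which had 11 to 17 counts in the control and 54 to 100 counts in the optimized libraries, so the value of B3gnt7 is uncertain to that extent. B3galt5, which makes type 1 chains, was at 4.59, 3.55 and 3.62 CPM against 13.4, 14 and 13.7 CPM (1.81, SE 0.14, adjusted p = 8.3e-06). B4galt1, the main galactosyltransferase of N-glycans, was at 93.9, 82.4 and 84.6 CPM against 223, 212 and 210 CPM (1.31, SE 0.09, adjusted p = 2.7e-06). The spread within each group was small next to the distance between the groups in both of these genes.

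B4galt5 and B4galt6 both make lactosylceramide, the precursor of most gangliosides, and both fell. B4galt6 was at 177, 184 and 153 CPM in the control and at 78.8, 68 and 68.6 CPM in the optimized libraries (log2 fold change -1.25, SE 0.10, adjusted p = 1.1e-05). B4galt5 fell by 0.39, a call that was lost without control library 1 (adjusted p = 0.058). B4galt7, which adds the first galactose of the linker of proteoglycan chains, rose by 0.70, whereas B3galt6, which adds the next galactose of that linker, was at 5.78 to 6.04 CPM in the control and at 5.02 to 6.39 CPM in the optimized libraries. B3galt6 shares 519 exon bases with Sdf4 on the opposite strand, so its level is uncertain. Sdf4 had 44.8 times the counts of B3galt6 and rose (log2 fold change 0.43, adjusted p = 0.03). B3gnt8 rose by 0.51 with an adjusted p of 0.048, and it lost the call with library size alone (0.078), with limma on FPKM (0.091 to 0.11) and when any library except optimized library 1 was left out (0.05 to 0.17). B3gnt2, the main enzyme of N-acetyllactosamine repeats, was at 28.3, 30.2 and 27.7 FPKM against 22.7, 22.3 and 25.4 FPKM and was not called (-0.15, adjusted p = 0.21; 0.038 with library size alone and 0.029 to 0.03 with limma on FPKM).

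Among the sialyltransferases more genes fell than rose, 6 (50%) against 2 (16.7%) of 12 tested, beside 15.2% and 14.7% of all genes. Of the 6, St3gal6 overlaps a gene that also fell, and St6gal1 and St3gal4 lost the call when single libraries were left out. St3gal1 (chr15:66974724-67048690, GRCm39), which caps core 1 O-glycans, was at 120, 118 and 120 CPM in the control and at 43.5, 32.2 and 37.2 CPM in the optimized libraries (log2 fold change -1.67, SE 0.11, adjusted p = 3e-06). It was the most abundant of its family in the control cultures. St8sia6 (chr2:13655832-13798896), which adds a further sialic acid to sialylated O-glycans, had 185, 165 and 194 counts against 24, 23 and 14 counts, a 7.79-fold lower CPM (-2.96, SE 0.22, adjusted p = 6.1e-06). St3gal6, which caps N-acetyllactosamine, was at 25.4, 25 and 25.5 CPM against 12.1, 10.8 and 9.67 CPM (-1.22, SE 0.11, adjusted p = 2.3e-05). Its exons share 3966 bases with Dcbld2 on the opposite strand. Dcbld2 had 1495 to 1669 counts in the control and 389 to 529 counts in the optimized libraries (log2 fold change -1.67), so the fall of St3gal6 is uncertain and cannot be told apart from that of Dcbld2.

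The other sialyltransferases changed by less. St3gal5, the enzyme that makes the ganglioside GM3, rose by 0.70, and St6galnac4, which sialylates the inner sugar of core 1 O-glycans, rose by 0.41. St6galnac6, which acts on gangliosides, fell by 0.73, St3gal4, which caps N-acetyllactosamine, fell by 0.69, and St6gal1, the enzyme of alpha-2,6 sialic acid on N-glycans, fell by 0.24. The call of St6gal1 (adjusted p = 0.046) was lost without every library except optimized library 1 (0.064 to 0.17) and with no filter on low counts (0.063). St3gal4 lost its call without control library 2 (0.072), as did St6galnac4 (0.051), which also lost it with limma on FPKM (0.054 to 0.058). St8sia4, one of the enzymes of polysialic acid, was not called (-0.36, adjusted p = 0.057), but was called lower with the replicate number as a block (0.034), DESeq2 (0.047), no filter (0.026), library size alone (0.047), without control library 3 (0.038) and without optimized library 1 (0.0045). The summed level of the St3gal genes was 46.4 ± 1.81 FPKM in the control and 30.6 ± 1.19 FPKM in the optimized cultures.

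Only 5 of 8 fucosyltransferases were tested, and 1 rose (20%) and 1 fell (20%), beside 14.7% and 15.2% of all tested genes. Fut7 rose while Fut4 fell. Both add the fucose of Lewis X type structures, Fut7 on sialylated chains. Fut7 had 23, 20 and 10 counts in the control and 29, 49 and 39 in the optimized libraries (log2 fold change 1.30, SE 0.39, adjusted p = 0.029). Control library 3 was too low for the filter on low counts, so Fut7 passed it only with the optimized libraries and its difference is a description. It kept its call where 10 counts were asked of every library. In CPM the groups did not overlap, at 0.366 to 1.01 against 1.37 to 2.09, but the call was lost without control library 2 (0.076), control library 3 (0.099), optimized library 2 (0.078) or optimized library 3 (0.081), and with library size alone (0.053). Fut4 was at 4.02, 3.3 and 4.25 CPM against 2.46, 2.51 and 2.32 CPM (-0.66, SE 0.19, adjusted p = 0.028) and lost its call without control library 1 (0.09), control library 3 (0.12) or optimized library 3 (0.082). Fut8, the enzyme of core fucose on N-glycans, was not called (-0.22, adjusted p = 0.19). The most abundant fucosyltransferase gene was Fut11, with 57.5% of the family's FPKM in the control and 57.6% in the optimized cultures.

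Among the sulfotransferases outside the heparan families, 4 rose (44.4%) and 1 fell (11.1%) of 9 tested, beside 14.7% and 15.2% of all tested genes. Chst1, which sulfates galactose of keratan sulfate, had 139, 181 and 190 counts in the control and 2531, 3193 and 2692 in the optimized libraries, an 18.9-fold higher CPM (log2 fold change 4.24, SE 0.11, adjusted p = 2.6e-08). Chst2, which sulfates N-acetylglucosamine, had 86, 111 and 120 counts against 1158, 1518 and 1196 counts, a 13.9-fold higher CPM (3.80, SE 0.12, adjusted p = 4e-08). Neither gene has a range in the optimized cultures that comes near that of the controls. Chst1 lies at chr2:92429325-92446522 and Chst2 at chr9:95281345-95289832 (GRCm39).

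Chst3 and Chst7, which both place sulfate on the N-acetylgalactosamine of chondroitin at the same position, moved in opposite directions. Chst3 was at 6.69, 4.85 and 6.19 CPM in the control and at 23.2, 17.5 and 17.9 CPM in the optimized libraries (log2 fold change 1.72, SE 0.16, adjusted p = 3.1e-05). Chst7 was at 12.7, 12.8 and 12.7 CPM against 1.42, 1.75 and 1.79 CPM, a 7.69-fold lower level (-2.94, SE 0.15, adjusted p = 5.9e-07), and lies at chrX:19925723-19966228. Slc9a7, with which Chst7 shares 1142 exon bases on opposite strands, had a log2 fold change of 0.05 (adjusted p = 0.85). Of the enzymes for the other position of chondroitin, Chst11 rose by 0.41 (adjusted p = 0.033) and lost the call with library size alone (0.21), without control library 2 (0.15) or control library 3 (0.14) and with limma on FPKM (0.2 to 0.21), and Chst12 was not called (0.14, adjusted p = 0.4), but was without optimized library 1 (0.25, adjusted p = 0.032). Chst10, which makes the HNK-1 epitope, was not called (-0.38, adjusted p = 0.059), but was with library size alone (0.018) and limma on FPKM (0.014 to 0.018).

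Of 10 heparan sulfotransferases 3 were tested, and none passed edgeR's test with TMM factors. Hs3st3b1 had a log2 fold change of 0.62 (adjusted p = 0.099), Hs6st1 of -0.19 (0.21) and Hs3st1 of -1.01 (0.15). At an unadjusted p under 0.05 edgeR gave 1 of them, Hs3st3b1, and DESeq2 called none at an adjusted p under 0.05. Hs6st1 was called lower with library size alone (-0.32, adjusted p = 0.034) and with limma on FPKM (0.039 to 0.044). Hs6st1 was the only one of them above 1 FPKM, at 12.9, 11.7 and 11.3 FPKM in the control and 8.58, 9.53 and 10.4 FPKM in the optimized libraries.

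The share that single genes held of the summed level of their family differed between the groups in several families. In the Chst family the summed level went from 56.5 ± 0.651 to 99.1 ± 2.97 FPKM, and Chst1 went from 3.99 ± 0.443% to 39 ± 0.222% of it, while Chst12 went from 44.6% to 25.4% at a level of 25.2 FPKM in both groups. In the B4galt family the sum was 92.6 ± 5.81 FPKM in the control and 95.4 ± 3.17 FPKM in the optimized cultures, with B4galt1 at 15.4% and 33.6% of it and B4galt6 at 31.1% and 11.5%. In the St3gal family the leading gene was St3gal1 in the control cultures (43.7 ± 0.354%) and St3gal5 in the optimized cultures (38.6 ± 2.26%). In the Gcnt family the sum went from 6.12 ± 0.829 to 26.3 ± 2.96 FPKM, and Gcnt1, which itself rose, was the leading gene at 95.9% and 76.8%, with Gcnt2 at 3.34 ± 0.462% and 23 ± 2.52%. These shares rest on the deposited FPKM and carry no test, and the optimized and control shares did not overlap for any gene named with a share here.

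**Figure D4:**
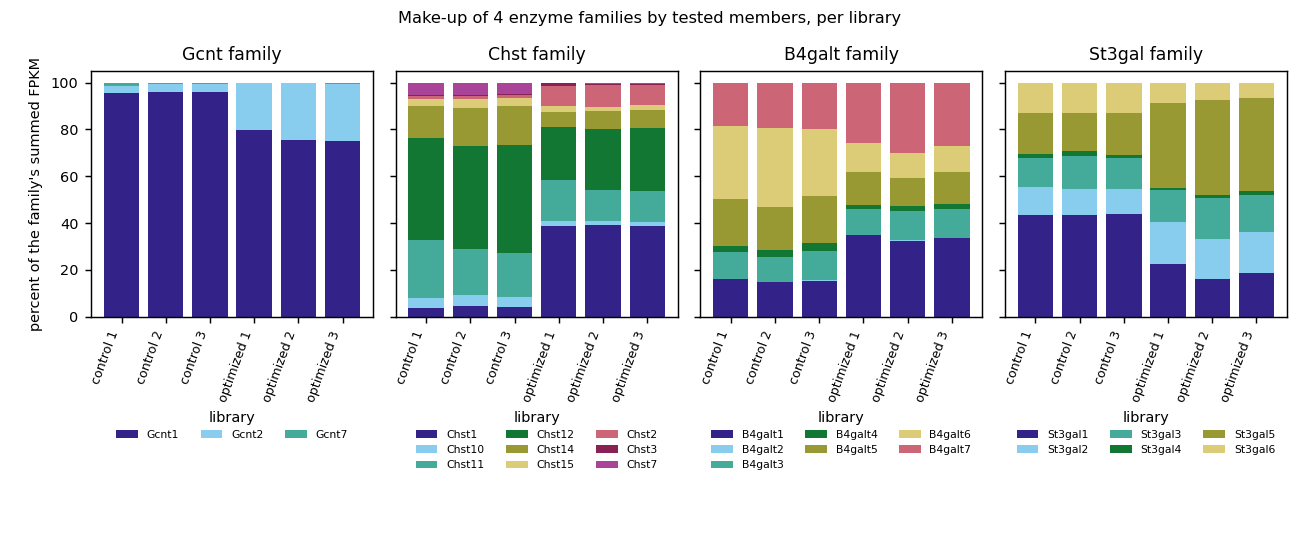
Share of each gene in the summed FPKM of its family, in percent, for the Gcnt, Chst, B4galt and St3gal families in each of the 6 libraries, as stacked bars from 0 to 100. Within a group the bars are alike, and between groups Chst1 (3.99% and 39%), B4galt1 (15.4% and 33.6%), St3gal5 (17.2% and 38.6%) and Gcnt2 (3.34% and 23%) take larger shares in the optimized cultures.

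On the per-length scale the tested genes had mean levels from 0.0193 to 45 FPKM with a median of 5.28 FPKM, and 52 of the 66 were at 1 FPKM or above. Of the 5 with the highest mean over all 6 libraries, Mgat4b, Galnt2, Mgat2, Galnt1 and B3gnt2, Galnt2 was called, and Mgat4b, Mgat2 and B3gnt2 were called lower under library size alone and under limma on FPKM. In the optimized cultures by themselves, Chst1 (38.6 FPKM), Mgat4b (38.6 FPKM), B4galt1 (32.1 FPKM) and Galnt7 (29.7 FPKM) had the highest means. By contrast, Gcnt2, B3gnt7, Galnt3, Galnt9, Chst2, Chst3, B3galt5 and Fut7 were below or near 1 FPKM in every control library, at 0.0353 to 1.12 FPKM.

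The remaining 42 genes had too few counts to be tested. Of these, 10 genes, namely B3galt9, Chst5, Chst9, Chst13, Galnt5, Hs3st4, Mgat4c, Mgat4d, St6galnac1 and St8sia3os, had 0 counts in all libraries, and 0 counts allow up to 0.11 to 0.145 CPM per library, counting error only. Another 26, namely Galnt13, Galnt14, Galnt15, Galnt17, Galnt18, Gcnt3, Mgat4e, Mgat4f, Mgat5b, B3galt1, B3galt2, B3gnt6, St6gal2, St6galnac3, St6galnac5, St8sia2, St8sia3, St8sia5, Fut1, Chst4, Chst8, Hs3st2, Hs3st3a1, Hs3st5, Hs3st6 and Hs6st3, had at most 10 counts in every library. The last 6 reached 64 counts for Fut9, 17 for St6galnac2, 13 for Gcnt4 and Mgat3, 12 for Hs6st2 and 11 for Fut2 in their highest library, and for 4 of these 6 that was optimized library 1. That library also stood furthest from others of its group. Without it 20 of 67 tested genes rose and 15 fell, beside 2591 and 2643 of all 14916 genes then tested. None of the 32 calls was lost without optimized library 1.

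Genes that supply the enzymes or act on the same chains were read from 4 further lists. The shares to set beside each list are those of all tested genes, of which 14.7% rose and 15.2% fell. Of 32 tested genes for nucleotide sugars, the sulfate donor and their transport, 12 rose (37.5%) and 1 fell (3.12%), with a median log2 fold change of 0.23. Cmas, which activates sialic acid, rose by 0.76, whereas Gne, the first enzyme of sialic acid synthesis (0.27, adjusted p = 0.11), Slc35a1, the carrier of activated sialic acid (0.19, adjusted p = 0.29), and the sulfate donor synthases Papss1 (0.25, adjusted p = 0.066) and Papss2 (-0.0010) were not called. The highest and the lowest called genes of this list were Gfpt2 (1.80, at 0.261 CPM in the control and 0.942 CPM in the optimized cultures) and Ugdh (-0.32). At its control level Gfpt2 could not pass the filter on low counts without the optimized libraries, so its difference is a description. The count of 13 called genes was not stable. It went to 3 without control library 2 or without optimized library 3, and to 6 without control library 1 or control library 3.

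Of 44 tested transferases of other families, 11 rose (25%) and 11 fell (25%), with a median of 0.14. Gal3st4, which sulfates galactose of O-glycans, rose most (2.30, from 1.9 ± 0.145 to 9.4 ± 0.807 CPM), and Ust, which sulfates uronic acid in chondroitin and dermatan sulfate, fell most (-1.39, from 9.39 ± 0.889 to 3.58 ± 0.678 CPM). C1galt1, which forms core 1 of O-glycans and so the substrate of Gcnt1 and St3gal1, was not called (0.15, adjusted p = 0.58).

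Of 21 tested enzymes that remove sugars or sulfate, 16 rose (76.2%) and 2 fell (9.52%), with a median of 0.59. Galns, a lysosomal sulfatase that acts on keratan sulfate and chondroitin 6-sulfate, rose most (1.54, from 99.3 ± 7.7 to 288 ± 34.5 CPM), and Neu1, the lysosomal sialidase, rose by 0.48 (adjusted p = 0.011, but 0.06 without control library 1). Hpse, which cuts heparan sulfate, fell by 0.57. Of 16 tested lectins and other proteins tied to glycan recognition, 6 rose and 6 fell (37.5% each), with a median of 0.10. Siglecf is a receptor for sialic acid and sulfated sialylated chains. It had 6, 2 and 10 counts in the control and 171, 179 and 156 in the optimized libraries (log2 fold change 4.98). Clec10a, a galactose-type lectin, had 24, 35 and 16 against 4, 0 and 1 counts. Both genes passed the filter on low counts only through the group in which they were high, so their differences are descriptions.

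**Figure D5:**
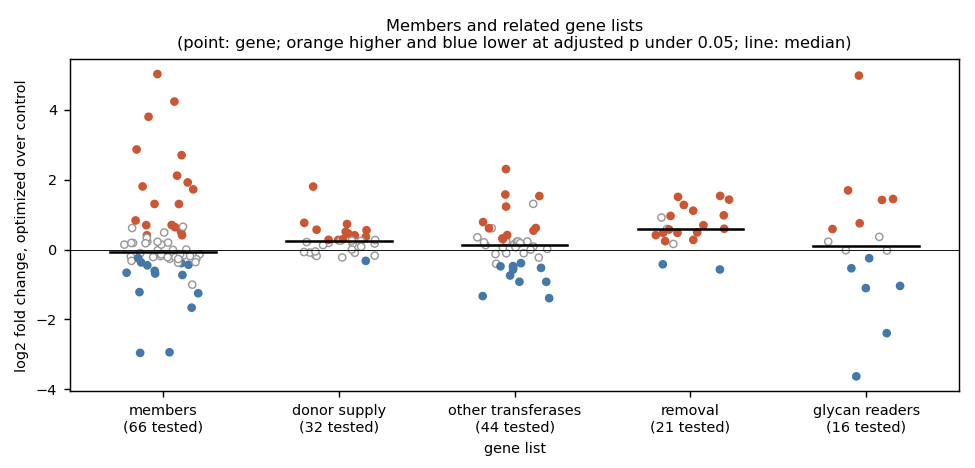
Log2 fold change, optimized over control cultures, of each tested gene in the glycosyltransferase and sulfotransferase families and in the 4 further lists, with 1 point per gene and a bar at the median of each list. The medians are -0.06, 0.23, 0.14, 0.59 and 0.10, and the points of the removal list lie mostly above 0 (16 of 21 rose), whereas those of the families spread to both sides.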

How the data were processed

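RNA-seq of 3 control and 3 optimized microglial cultures was used. According to the methods of the study, paired-end reads were mapped to mm39 with HISAT2 and assigned to genes with featureCounts in Galaxy. The versions, the annotation and the strand setting are not given in the sources used here. The authors deposited 2 tables of the same 41079 genes, one of unnormalized counts and one of FPKM. Groups and replicate numbers were taken from the labels. The study calls its replicates biological and independent, while the labels do not say which animals or cultures a library came from. P-values measure the spread between these libraries.

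Optimized and control counts were compared in edgeR 4.0.16 (R 4.3.3). After filterByExpr, TMM factors of 0.898 to 1.07 and the quasi-likelihood test were used for 14618 genes. P-values were adjusted by Benjamini-Hochberg, and genes under 0.05 were called. A standard error is the log2 fold change, without its sign, over the square root of F. CPM use TMM-scaled library sizes. The common dispersion was 0.0164. On simulated counts for this comparison, with 200 changed genes among 14460 tested, 93% were recovered at a 2-fold and 100% at a 4-fold change. The changed genes were drawn without those of the lowest mean counts, and every gene was given the common dispersion. This recovery therefore does not carry over to genes with few counts. A smaller share of genes was changed than was called in the data.

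Alternatives were DESeq2 1.42.0, scaling by library size alone or by relative log expression, a filter of 10 counts in each library or none, a block for the replicate number, leaving out each library, and limma 3.58.1 on log2(FPKM + 1), also for genes with a mean FPKM of 1 or more, and on log2(FPKM + 0.1). The pseudocount makes limma understate the change of low genes. Coordinates and exon overlaps are those of GENCODE M39 on GRCm39, in which 106 of the 108 genes were found, 42 of them with exons that overlap those of another listed gene. Promoter windows are RefSeq's on GRCm38.p6.

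The gene families, further lists and tests were chosen with earlier results of these data known. Every gene of the families called with a log2 fold change of 1 or more in size, and the 5 with the highest mean FPKM, is given in every library. The other called genes and the highest and lowest of each role are named, as are genes too low to test. From each further list the highest and lowest called gene and Gne, Cmas, Slc35a1, Neu1, C1galt1, Papss1 and Papss2 are named. Mgat5, B3galt6, St8sia4, Fut8, Fut11, Chst10, Chst12 and Hs6st1 are outside this rule, and their values were known when they were chosen.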

Additional observations from a re-analysis of the deposited data

How the results depend on the processing

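Of the 32 called genes of the families, 23 kept direction and call under every alternative in which they were tested, and 9 lost the call at least once and none reversed. The count of those that fell, 14, went to 25 with library size alone, to 24 with limma on log2(FPKM + 1), to 25 on log2(FPKM + 0.1), to 24 for a mean FPKM of at least 1, and to 7 (with 13 that rose) without genes whose exons overlap another gene, where fewer genes were counted. Among all called genes the share that rose was 49.1%, and 32.3% with library size alone, 31.1%, 31.3% and 28.4% with limma. The median log2 fold change of the families, -0.06, was -0.19 with library size alone, 0.13 with no filter, -0.13 with at least 10 counts in every library, and -0.12, -0.19 and -0.26 with limma in the same order. The 13 called genes of the nucleotide sugar and sulfate donor list became 7 with library size alone and 7, 8 and 6 with limma. Other causes of these shifts were not tested.

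With each library left out in turn, 14 to 20 genes of the families rose and 10 to 15 fell, the median was -0.136 to -0.0501, and 3 to 17 genes of the nucleotide sugar and sulfate donor list, 16 to 24 of the other transferases, 14 to 19 of the removal list, 9 to 13 of the glycan readers and 3249 to 5234 of all genes were called.

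Same-numbered libraries of the groups deviated from their group means with correlations of 0.27, -0.012 and 0.18, so the numbers were not taken as pairs, and not every library correlated best with its own number. With the replicate number as a block, 4924 of all genes were called, and 19 genes of the families rose and 16 fell, with 3 calls gained (Mgat4b, Mgat5 and St8sia4) and none lost. The donor, transferase, removal and reader lists then had 14, 23, 18 and 12 called genes. At these depths 42 of the 108 genes had too few counts for the filter, and genes near it, such as Galnt9, carry large errors.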
